A study of Mus musculus with 8 samples.

Results

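The 10 genes described here take part in triglyceride synthesis and glycerol handling: Gpam, Agpat2, Agpat3, Lpin1, Dgat1, Dgat2, Mogat1, Pck1, Gpd1 and Aqp7. They were taken by gene symbol from a table of 30387 genes, as a set defined by function (and drawn up with earlier results of these data known), and all 10 were measured in each of 8 RNA-seq libraries. The RNA came from isolated white adipocytes of epididymal fat. Wild-type littermates (WT) were compared with Ad-Yap/Taz-KO mice (the knockout), which carry Adipoq-Cre and the floxed alleles Yap fl/fl and Taz fl/fl. Cre is driven by the adiponectin promoter, so that other cells of the fat pad keep both genes, and the deletion is constitutive rather than induced. Mice of both genotypes received standard diet (SD, called normal chow in the labels) or high-fat diet (HFD) for 4 weeks, from week 5 of age in the series description and somewhat later in the study's methods. The 4 groups are thus WT on SD, Ad-Yap/Taz-KO on SD, WT on HFD and Ad-Yap/Taz-KO on HFD, with 2 libraries each (repeat 1 and repeat 2). The groups are described in the study as 2 mice each and its data as biological replicates. Each p-value rests on a spread shared by the 4 groups and drawn partly from all genes, not on the compared mice alone.

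White adipocytes store fatty acids as triglyceride, which is built on glycerol 3-phosphate. GPAT1, the product of Gpam, attaches the first acyl chain, the AGPAT enzymes attach the next one to give phosphatidic acid, and lipin 1, the product of Lpin1, removes the phosphate to give diacylglycerol. DGAT1 and DGAT2, a pair of enzymes unrelated in sequence, add the last acyl chain, and MGAT1, encoded by Mogat1, makes diacylglycerol from monoacylglycerol. Glycerol 3-phosphate itself comes from glucose through the dehydrogenase encoded by Gpd1, or from smaller carbon compounds through glyceroneogenesis, for which Pck1 encodes the committed enzyme PEPCK. AQP7 is the channel through which glycerol released by lipolysis leaves the adipocyte.

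On the GRCm38 build the members lie on 8 chromosomes, Agpat2 (ENSMUSG00000026922, chr2:26593057-26604417) and Pck1 (ENSMUSG00000027513, chr2:173153048-173159273) far apart on chromosome 2, and Dgat1 (ENSMUSG00000022555, chr15:76502015-76511951) and Gpd1 (ENSMUSG00000023019, chr15:99717515-99725005) on chromosome 15. The others are Mogat1 (ENSMUSG00000012187, chr1:78510991-78538173), Aqp7 (ENSMUSG00000028427, chr4:41033074-41048139), Dgat2 (ENSMUSG00000030747, chr7:99153658-99182719), Agpat3 (ENSMUSG00000001211, chr10:78269178-78352489), Lpin1 (ENSMUSG00000020593, chr12:16535669-16589770) and Gpam (ENSMUSG00000024978, chr19:55069734-55099451). Exons of Gpd1 share 384 of 2961 bases, and those of Mogat1 200 of 1558, with a gene on the opposite strand, as do 64 bases of Agpat2 and 16 of Agpat3. Reads over more than 1 gene were not counted, and whether the counting used strand is not given in the sources used here, so reads from these stretches may have been dropped.

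YAP and TAZ act on DNA through TEAD factors, PEPCK expression is known for its control through a cyclic AMP response element, and nuclear receptors bind half-sites, so these letters were searched on both strands in the 250 bases before each start in RefSeq (GRCm38.p6). The table held 9 starts of 7 members, and none for Dgat1, Dgat2 or Gpd1. The TEAD letters GGAATG were found at 1 of the 7 genes, Gpam, and in 12.6% of all 32851 windows. TGACGT, the cyclic AMP response element half-site, was found at Gpam and Pck1 (6.47% of all windows), and the nuclear receptor half-site AGGTCA at Gpam, Lpin1 and Aqp7 (14.0%). The E-box CACGTG was found at 0 of the 7 genes (6.02%). The 3 windows below are shown because they hold matches and belong to called genes of a glycerol 3-phosphate source, the first acyl transfer and the phosphatase step, with the matches in capitals and each sequence read 5′ to 3′ on the strand of its gene.
Pck1 (plus strand, chr2:173152823-173153072): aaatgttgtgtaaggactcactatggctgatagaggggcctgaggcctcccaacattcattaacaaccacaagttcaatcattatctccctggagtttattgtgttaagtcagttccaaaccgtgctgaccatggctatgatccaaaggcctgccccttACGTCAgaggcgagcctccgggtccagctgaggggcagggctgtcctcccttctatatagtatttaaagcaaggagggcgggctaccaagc
Gpam (minus strand, chr19:55099478-55099727): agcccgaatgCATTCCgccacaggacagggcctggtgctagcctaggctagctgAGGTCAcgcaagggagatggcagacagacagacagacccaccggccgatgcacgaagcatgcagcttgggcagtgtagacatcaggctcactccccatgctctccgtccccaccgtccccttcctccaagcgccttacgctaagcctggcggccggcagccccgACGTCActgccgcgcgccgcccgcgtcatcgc
Lpin1 (minus strand, chr12:16610967-16611216): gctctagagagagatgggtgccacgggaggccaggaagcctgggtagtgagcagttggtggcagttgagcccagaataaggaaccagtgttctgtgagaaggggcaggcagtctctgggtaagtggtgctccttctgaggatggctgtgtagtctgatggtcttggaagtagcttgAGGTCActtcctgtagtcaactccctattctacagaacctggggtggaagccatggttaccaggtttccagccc
The capitals in Pck1 mark ACGTCA, the other strand of TGACGT, 91 bases before the start. In Gpam they mark the TEAD letters on the other strand (CATTCC, 240 bases before the start), AGGTCA at 196 bases and ACGTCA at 32 bases. The match in Lpin1 is AGGTCA, 74 bases before a RefSeq start that lies outside the span given for the gene in the deposited table. These are matches of letters only, at shares that many promoters hold, and binding was not measured.

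Values are called normalized counts below: each library's gene counts were divided by its own size factor, then rounded. Their totals lie between 14890264 and 20994246 per library, on 13.99 to 22.3 M reads counted on genes, so that all 10 members were far above the counting limit. The targeted Wwtr1, which encodes TAZ, had 5594 and 4743 normalized counts in both WT libraries on SD against 2441 and 1957 in the knockout (log2 fold change -1.24), and 7121 and 6807 against 2060 and 2707 on HFD (-1.56). Yap1 had 2776 and 2717 against 1669 and 1699 on SD (-0.71), and 2468 and 2333 against 1549 and 2068 on HFD (-0.42, limma adjusted p = 0.059, which did not pass). In these values both targets lay below WT in every Ad-Yap/Taz-KO library, whereas on HFD, after the scaling to adipocyte markers described below, Wwtr1 stood at 0.03 and Yap1 at 1.17, and on SD neither passed (-1.11 and -0.58). Among well-read genes the 2 WT HFD libraries were closer to each other than any other pair: in genes with 1000 to 5000 reads their squared difference was 5.60 times the counting noise, against 17.5 to 49.1 times in the other groups. In genes with 5 to 20 reads it was 5.65 times, within the 5.37 to 8.96 times of the others. Because of the first value no standard deviation is given for them, and calls that are lost when they are averaged to 1 sample are named (for the targets, Yap1 on SD, adjusted p = 0.0746). How much of the spread between mice the 2 WT HFD libraries hold was not tested. Repeat 1 of Ad-Yap/Taz-KO on HFD was above repeat 2 in 10 of 10 members, by 1.16 to 2.98 times (median 1.83).

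Markers of other cells moved with the groups. The 15 adipocyte markers summed to between 504573 and 697387 normalized counts in the SD libraries, 747358 and 734771 in WT on HFD, and 415358 and 213832 in Ad-Yap/Taz-KO on HFD, with no marker at 0. The 12 macrophage markers summed to 5604 and 5193 in the WT libraries against 41716 and 26248 in the knockout on SD, and to 2585 and 2460 against 59508 and 46726 on HFD, with Fcgr1 at 0 in at least 1 library. Fibroblast and progenitor markers (8) ran from 11787 to 20473 on SD, 9037 and 9369 in WT on HFD, and 34242 and 39075 in Ad-Yap/Taz-KO on HFD. Endothelial markers (8) lay between 12575 and 30584 in all libraries. Mesothelial markers (6) summed to at most 694, lymphocyte markers (6) to at most 85 and brown adipocyte markers (4) to at most 317, with 4, 4 and 1 of their genes at 0 in some library. The part of these shifts in the results below was not tested beyond the scaling to adipocyte markers given there. In bulk RNA, fewer adipocytes and less RNA per adipocyte cannot be told apart.

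The first question was how loss of YAP and TAZ bears on these genes under HFD. Dgat2 showed the largest difference, 5.90-fold lower in Ad-Yap/Taz-KO than in WT libraries, and Pck1, Lpin1, Gpam, Mogat1, Agpat2 and Agpat3 were lower as well. Dgat1, Gpd1 and Aqp7 did not pass the limits, so that the acyl chain steps gave 6 of 7 genes and the glycerol genes 1 of 3. When libraries were instead scaled to the same geometric mean of the 15 adipocyte markers, Dgat2 was the only member that stayed lower. All 10 values were below 0 in the scaling of the deposited values, and 9 were above 0 after the adipocyte marker scaling, as were Dgat1 (0.17) and Gpd1 (0.03) with a common total for every library.

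Called higher or lower here means a p of at most 0.05 after Benjamini-Hochberg adjustment over 18800 genes (limma on log2 of the normalized count plus 1), together with a log2 fold change that reaches 0.59 (1.5-fold) in either direction. By these limits 7 of 10 members were lower and 0 were higher in Ad-Yap/Taz-KO on HFD, where 32.2% of all tested genes were called, 15.1% lower and 17.1% higher. In 8 of 10 members both Ad-Yap/Taz-KO libraries lay below both WT libraries, as in 33% of all tested genes, and in 0 of 10 both lay above (36.5% of all genes). The median log2 fold change was -1.16 over the members and 0.095 over all tested genes. With 2 libraries against 2, the smallest two-sided p of an exact permutation test for 1 gene is 0.333, and each p below is therefore that of limma.

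On HFD, 39078 and 38200 normalized counts of Dgat2 in the WT libraries stood against 11292 and 3792 in the knockout. The groups were far apart, although the Ad-Yap/Taz-KO libraries also differed from each other. On the log2 scale the difference was -2.56 (standard error 0.38, adjusted p = 0.00029). For Dgat1, which encodes the other enzyme of this step, 1373 and 1624 normalized counts in WT stood against 1777 and 929. The Dgat1 groups overlapped, and the difference of -0.22 had a 95% interval from -0.75 to 0.32 (adjusted p = 0.53). This interval does not hold the Dgat2 estimate.

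Gpam, for the first acyl chain, had 6419 and 6428 normalized counts in WT on HFD, against 3495 and 1943 in the knockout. No overlap was seen (log2 fold change -1.30, standard error 0.30, adjusted p = 0.0048). Agpat2, whose human counterpart is mutated in a congenital lipodystrophy, had 10035 and 10304 against 6873 and 3705 (-1.01, standard error 0.24, adjusted p = 0.0067). For Agpat3, an acyltransferase of the same family, 4000 and 4173 stood against 2895 and 1992 (-0.77, standard error 0.18, adjusted p = 0.0061). Both AGPAT genes were lower without overlap, but with the WT HFD libraries as 1 sample they no longer passed (adjusted p = 0.0598 and 0.06), in a fit that called 8.14% of all genes lower. Lpin1 had 17212 and 17657 against 9734 and 4902 (-1.34, standard error 0.28, adjusted p = 0.0031). The low-abundance Mogat1 had 251 and 225 against 103 and 89, the pair of Ad-Yap/Taz-KO values that lay closest together (-1.30, standard error 0.24, adjusted p = 0.0012).

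Among the glycerol genes, Pck1 had 33457 and 33715 normalized counts in WT on HFD, against 15662 and 10313 in the knockout, 2.64-fold lower (-1.40, standard error 0.22, adjusted p = 0.00039). Gpd1, which makes glycerol 3-phosphate from a glucose product, had 16272 and 16420 against 17800 and 9217. One Ad-Yap/Taz-KO library was thus above and the other below WT for Gpd1, and the log2 difference was -0.35 (95% interval -0.87 to 0.17, adjusted p = 0.28). Aqp7 had 2285 and 2421 against 1843 and 1486, lower in both libraries by 1.42-fold (-0.51, standard error 0.16, adjusted p = 0.027), which is short of the 1.5-fold limit.

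**Figure D1:**
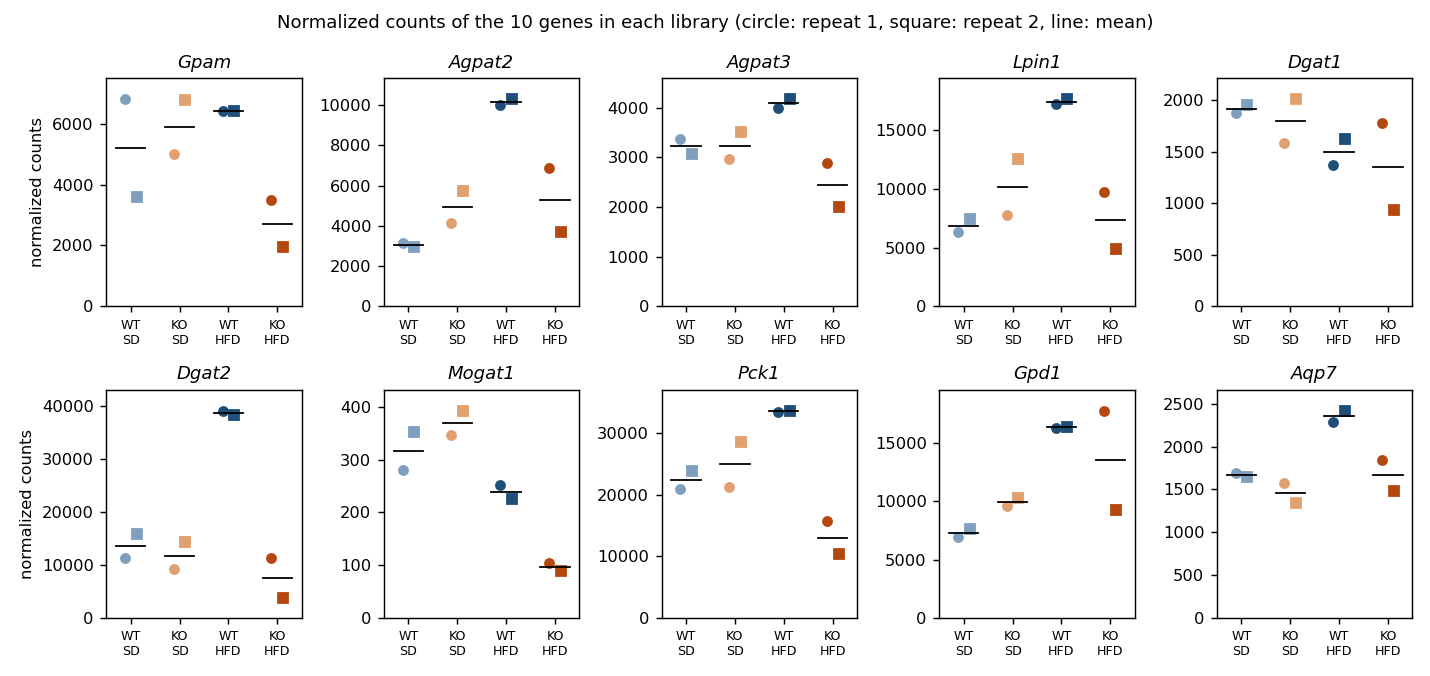
Normalized counts of each gene (vertical axes, linear and starting at 0) in the 8 libraries of the 4 groups, with KO for Ad-Yap/Taz-KO. Circles are repeat 1, squares repeat 2 and lines the mean of the 2 libraries. Dgat2 reached 39078 and 38200 in WT on HFD and stayed at or below 15712 in the other 6 libraries.

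Leaving out a single Ad-Yap/Taz-KO HFD library moved these counts, in fits where the remaining library is assumed to vary like the other groups. Without repeat 2, the lower of both, 4 members were called lower (Lpin1, Dgat2, Mogat1 and Pck1, with 9.74% of all genes), and without repeat 1 all 10 were (16.7% of all genes). Dgat1 and Gpd1 turned to 0.25 and 0.12 without repeat 2. Dgat2 remained lower in each of 15 other settings and with each of the 8 libraries left out, from -3.35 to -0.97. Lpin1, Mogat1 and Pck1 lost their call under 1 of the 15 settings, the adipocyte marker scaling, and with 0 of the 8 libraries left out. Agpat2 was also lost with quantile normalization and without either WT HFD library, and Agpat3 with quantile normalization, a common total for every library and without repeat 2 of WT on HFD.

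Adipocyte markers fell with these genes, 13 of 15 being called lower in Ad-Yap/Taz-KO on HFD (median log2 fold change -1.44), whereas 12 of 12 macrophage markers and 6 of 8 fibroblast and progenitor markers were higher. Of the other lists 2 of 8 endothelial markers and 1 of 3 tested lymphocyte markers were higher, 1 of 5 tested mesothelial markers was higher and 1 lower, and 0 of 3 tested brown adipocyte markers were called. After scaling to the adipocyte markers, Dgat2 stood at 1.42 and 1.40 times their geometric mean in WT on HFD and at 0.875 and 0.592 times in Ad-Yap/Taz-KO. The log2 fold change of Dgat2 was then -0.97 (adjusted p = 0.0123), among only 0.819% of all genes called lower in that fit. Dgat1 (1.37), Gpd1 (1.24), Aqp7 (1.08) and Agpat3 (0.83) were called higher in the same fit, where 63.5% of all genes were. Gpam, Agpat2, Lpin1, Mogat1 and Pck1 lay between 0.19 and 0.58 and did not pass. That scaling moved the median of all genes to 1.64, above each of the 10 members, and a common total for every library moved it to 0.47, from 0.095.

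**Figure D2:**
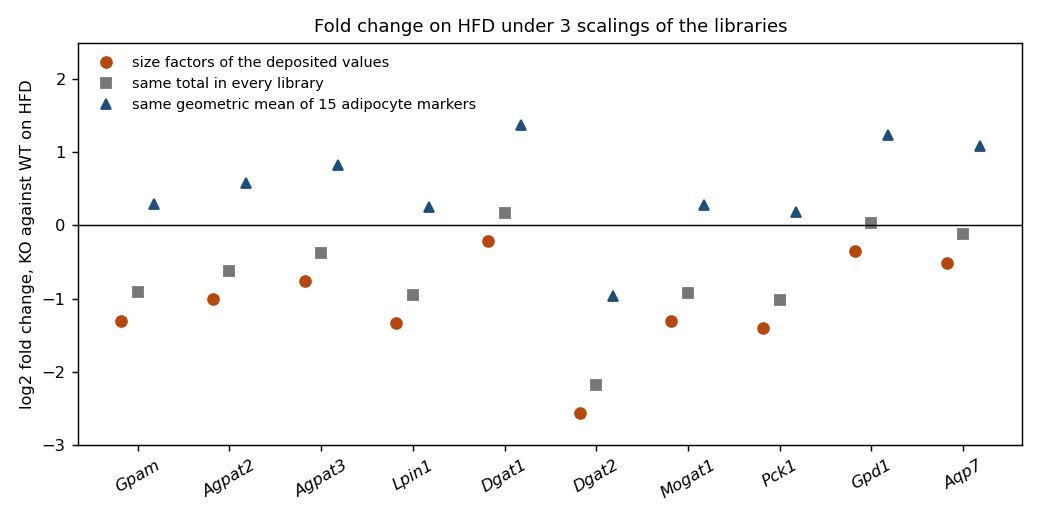
Log2 fold change of the knockout on HFD relative to WT (vertical axis) for each gene under 3 scalings of the libraries, without error bars. Circles are the deposited values, squares the same total in every library and triangles the same geometric mean of the adipocyte markers. Dgat2 was below 0 under each of the 3 (-0.97 with the triangles), whereas the other 9 genes lay above 0 with the adipocyte marker scaling.

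On SD the same deletion left these genes within the limits. Of 10 members 0 were called, where 4.71% of all tested genes were (3.21% higher and 1.5% lower), and the median log2 fold change was 0.19 (-0.014 over all genes). At an unadjusted p under 0.05 in limma, 3200 of the 18800 tested genes passed, and 1 member, Agpat2. It had 3162 and 2952 normalized counts in both WT libraries against 4125 and 5743 in the knockout, above WT in both libraries (0.67, 95% interval 0.14 to 1.20, adjusted p = 0.17). The same difference was called without repeat 1 (adjusted p = 0.0252) or repeat 2 (adjusted p = 0.0246) of the knockout on HFD, libraries that enter this comparison only through the shared spread, in fits that called 3.4% and 3.44% of all genes higher. Lpin1, with 6322 and 7431 against 7786 and 12581 (0.53, adjusted p = 0.37), and Gpd1, with 6924 and 7652 against 9570 and 10289 (0.45, adjusted p = 0.38), were also above WT in both libraries without passing. Dgat2 had 11291 and 15712 against 9127 and 14293, with overlapping groups (-0.22, 95% interval -1.05 to 0.61). The other 6 members had log2 differences between -0.19 and 0.23. Among these, Aqp7 lay below WT in both knockout libraries (1577 and 1345 against 1687 and 1645). The share of all genes separated in this way on SD was not counted. Macrophage markers were already higher on this diet, 11 of 12 being called (median log2 fold change 2.26), while 0 of 15 adipocyte markers were called, and 2 of 3 tested brown adipocyte markers were higher. Of the endothelial, fibroblast and progenitor, mesothelial and lymphocyte markers 0 were called, although 8 of 8 endothelial markers lay below 0 (median log2 fold change -0.66).

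In WT mice, HFD went with higher Agpat2, Dgat2, Lpin1 and Gpd1, 1 gene each for an acyl transfer before and after the lipin step, lipin 1 itself and the dehydrogenase that supplies glycerol 3-phosphate. These 4 of 10 members were called higher and 0 lower, where 18% of all tested genes were called, 8.74% higher and 9.22% lower. Agpat2 rose 3.33-fold, from 3162 and 2952 to 10035 and 10304 normalized counts (log2 fold change 1.73, standard error 0.24, adjusted p = 0.00088). Dgat2 rose 2.90-fold, from 11291 and 15712 to 39078 and 38200 (1.54, standard error 0.38, adjusted p = 0.016), Lpin1 2.54-fold (1.35, standard error 0.28, adjusted p = 0.0076) and Gpd1 2.25-fold (1.17, standard error 0.24, adjusted p = 0.0069). Only for Agpat2 did the call remain once the WT HFD libraries counted as 1 sample (adjusted p = 0.0288, with 1.12% of all genes called higher), and the other 3 then had an adjusted p between 0.0808 and 0.122. Those 3 were also lost without repeat 1 of WT on SD and without either WT HFD library, and without a filter on low values. Dgat2 was lost without repeat 2 of WT on SD and with quantile normalization (adjusted p = 0.0736) as well. After scaling to the adipocyte markers the other 3 stayed above 0 without passing.

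The remaining 6 members did not pass in WT. Pck1 went from 20955 and 23901 to 33457 and 33715 without overlap (0.59, adjusted p = 0.075), and Aqp7 from 1687 and 1645 to 2285 and 2421 (0.50, adjusted p = 0.046, short of the fold limit). Gpam (0.38) and Agpat3 (0.34) lay above 0 and Dgat1 (-0.36) and Mogat1 (-0.41) below. With a common total for every library Dgat1 (-0.77, adjusted p = 0.0221) and Mogat1 (-0.82, adjusted p = 0.0251) were called lower on HFD, as 19% of all genes were. Gpam and Agpat3 turned below 0 with a common total for every library (-0.04 and -0.07) or with scaling to the adipocyte markers (-0.17 and -0.20). Of the adipocyte markers 2 of 15 were higher and 1 lower on HFD in WT, and 11 of 12 macrophage markers were lower. Lower on HFD were also 3 of 8 endothelial markers, 4 of 8 fibroblast and progenitor markers, 1 of 5 tested mesothelial and 1 of 3 tested lymphocyte markers, and 0 of 3 tested brown adipocyte markers were called. Relative to the adipocyte markers, Agpat2 was still higher (1.19, adjusted p = 0.0216), in a fit that called 0.601% of all genes higher, and Dgat2 had 0.99 (adjusted p = 0.0548).

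In Ad-Yap/Taz-KO mice, 1 member was called between the diets. Mogat1 went from 347 and 393 normalized counts on SD to 103 and 89 on HFD, 3.83-fold (log2 fold change -1.94, standard error 0.24, adjusted p = 0.0040), where 1.07% of all genes were called, 0.383% higher and 0.691% lower. The call was lost without repeat 2 of the knockout on SD, without a filter on low values, when only these groups were fitted and after scaling to the adipocyte markers (-1.02, adjusted p = 0.117). Gpam (-1.16, adjusted p = 0.084), Pck1 (-0.96, adjusted p = 0.059) and Agpat3 (-0.43, adjusted p = 0.28) were below SD in both libraries and did not pass. The share of all genes separated in this way was not counted. Pck1 was called lower in 6 of 15 other settings, among them a common total for every library (-0.94, adjusted p = 0.0298). Without repeat 1 of the HFD group 7 members were called lower, where 3.24% of all genes were. Agpat2 had 4125 and 5743 on SD and 6873 and 3705 on HFD (0.05, 95% interval -0.48 to 0.58), and Gpd1 9570 and 10289 against 17800 and 9217 (0.37, adjusted p = 0.49). After scaling to the adipocyte markers Gpd1 was the member called, higher on HFD (1.29, adjusted p = 0.0228), as 7.99% of all genes were. Over the 10 members the median log2 fold change was -0.50 (0.034 over all genes). The adipocyte markers lay below 0 in 15 of 15 cases, 1 being called (median -0.89), and the macrophage markers above 0 in 11 of 12, 1 being called (median 0.89). Fibroblast and progenitor markers lay above 0 in 8 of 8 cases, 2 being called (median 0.98), as did 8 of 8 endothelial markers, none of which was called (median 0.55). Of the mesothelial, lymphocyte and brown adipocyte markers 0 were called.

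**Figure D3:**
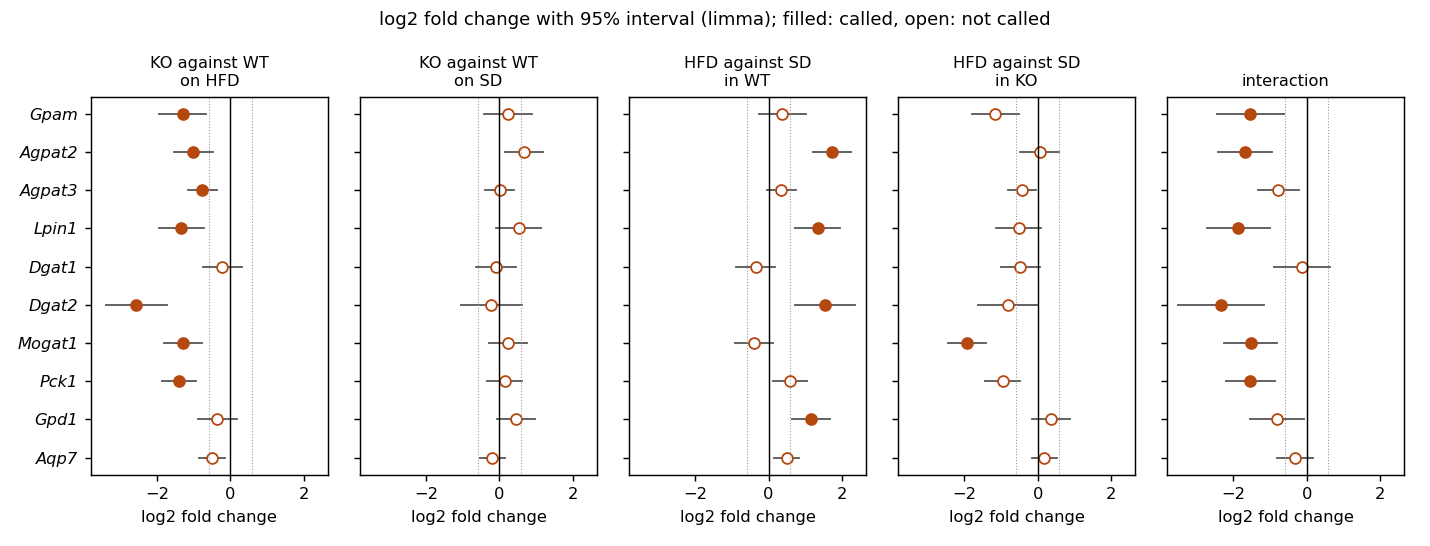
Log2 fold change of each gene (horizontal axes) in 4 comparisons and in the interaction of genotype and diet, with KO for Ad-Yap/Taz-KO. Points are limma estimates from 2 libraries a group, lines their 95% intervals, filled points pass the limits and dotted lines mark 0.59 in either direction. The filled points number 7, 0, 4, 1 and 6 from left to right, and those of the KO comparison on HFD and the interaction lie to the left of 0.

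The test of whether the genotype effect differed between the diets is the interaction, the log2 fold change on HFD minus that on SD. It passed for 6 of 10 members, all with a lower value on HFD, where 17.4% of all genes were called, 8.69% higher and 8.73% lower. They were Dgat2 (-2.34, standard error 0.54, adjusted p = 0.014), Lpin1 (-1.86, adjusted p = 0.011), Agpat2 (-1.68, adjusted p = 0.0095), Pck1 (-1.54, adjusted p = 0.0087), Gpam (-1.53, adjusted p = 0.027) and Mogat1 (-1.53, adjusted p = 0.012). Agpat3 (-0.77, adjusted p = 0.056), Gpd1 (-0.80, adjusted p = 0.12), Aqp7 (-0.31, adjusted p = 0.35) and Dgat1 (-0.12, adjusted p = 0.84) did not pass. With the WT HFD libraries as 1 sample 0 members passed, the 6 having an adjusted p between 0.0593 and 0.106, and 2.75% of all genes were called. Without repeat 2 of WT on HFD 0 passed either (4.03% of all genes), and 1 did without repeat 1 of WT on SD (2.82%) and 2 without repeat 1 of WT on HFD (5.43%). Without a filter on low values Mogat1 alone passed, as 2.37% of all genes did, and the other 5 had an adjusted p between 0.0554 and 0.118. Gpam was also lost with a common total for every library (adjusted p = 0.067) and with quantile normalization (adjusted p = 0.0588). After scaling to the adipocyte markers these 6 lay between -0.87 and -0.07 without passing, and Dgat1 was called higher (1.35), as 29.1% of all genes were. In the interaction 10 of 15 adipocyte markers were called lower and 11 of 12 macrophage markers higher. Called higher were also 7 of 8 fibroblast and progenitor markers (median 1.86), 6 of 8 endothelial markers (median 1.33) and 1 of 5 tested mesothelial markers, and 0 of the lymphocyte and brown adipocyte markers were called.

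Ratios of members within a library do not depend on the scaling of the libraries. Per kilobase of exon, Dgat2 stood at 5.98 and 7.99 times Dgat1 in WT on SD, 5.70 and 7.06 in Ad-Yap/Taz-KO on SD, 28.2 and 23.3 in WT on HFD, and 6.30 and 4.05 in Ad-Yap/Taz-KO on HFD. The high ratio was seen in the WT HFD libraries alone, and the other 3 groups overlapped. Agpat2 to Agpat3 was 3.42 and 3.52 in WT on SD, 5.09 and 5.98 in Ad-Yap/Taz-KO on SD, 9.18 and 9.03 in WT on HFD, and 8.68 and 6.80 in Ad-Yap/Taz-KO on HFD. This ratio was thus higher on HFD than on SD in both genotypes. Pck1 to Gpd1 was 2.61 and 2.70 in WT against 1.92 and 2.40 in the knockout on SD, and 1.78 and 1.77 against 0.760 and 0.966 on HFD. Per kilobase, the gene of glyceroneogenesis was below that of the glucose route in both Ad-Yap/Taz-KO HFD libraries, and above it in the other 6. This order depends on the exon lengths used. Before division by length, Pck1 had 15662 normalized counts against 17800 of Gpd1 in repeat 1, but 10313 against 9217 in repeat 2.

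**Figure D4:**
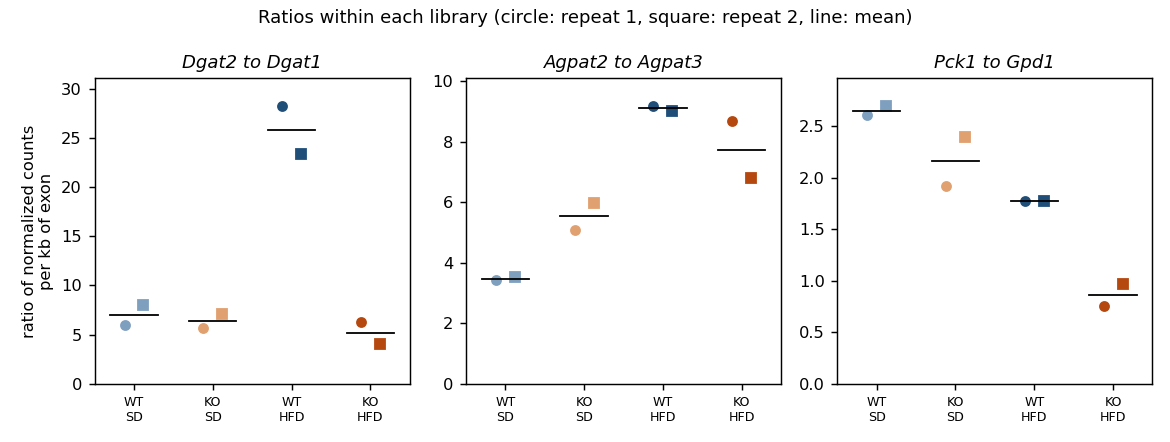
Ratio of normalized counts per kilobase of exon (vertical axes, linear and starting at 0) for 3 pairs of genes in each library, with KO for Ad-Yap/Taz-KO. Circles are repeat 1, squares repeat 2 and lines the mean of the 2 libraries. Dgat2 to Dgat1 was 28.2 and 23.3 in WT on HFD and at most 7.99 elsewhere, and Pck1 to Gpd1 fell below 1 only in Ad-Yap/Taz-KO on HFD (0.760 and 0.966).

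The order of the levels per kilobase of exon also changed. In WT on SD the group means ran from Pck1 (6541 normalized counts per kilobase) over Dgat2 (4379), Gpd1 (2461), Agpat2 (1435), Gpam (780), Lpin1 (712), Dgat1 (625), Aqp7 (589) and Agpat3 (414) to Mogat1 (204), where only Gpam and Lpin1 overlapped as neighbours. In WT on HFD Dgat2 came first (12530), ahead of Pck1 (9795), Gpd1 (5520) and Agpat2 (4774) without overlap. In Ad-Yap/Taz-KO on HFD the order was Gpd1 (4562), Pck1 (3788), Agpat2 (2483) and Dgat2 (2446), each overlapping the next. Mogat1 had the lowest level in all 4 groups, 61.6 in Ad-Yap/Taz-KO on HFD. Over the group means Dgat2 varied most (2.56 on the log2 scale), then Mogat1 (1.94) and Agpat2 (1.73), and Aqp7 (0.69) and Dgat1 (0.57) least.

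A further 24 genes were listed for the acyl chain steps and enzymes that act around them, for glycerol handling and for lipid droplet assembly. Of these, 22 passed the filter on low values, all but Aqp3 and Aqp9. In Ad-Yap/Taz-KO on HFD 10 of the 22 were lower and 2 higher, where 15.1% of all genes were lower and 17.1% higher. Mogat2, which encodes another monoacylglycerol acyltransferase, is the nearest protein-coding gene on that side of Dgat2 (ENSMUSG00000052396, chr7:99219084-99238619, 36364 bases away). It had 156 and 160 normalized counts in both WT libraries against 20 and 3 in the knockout (-4.12, standard error 0.74, adjusted p = 0.0011). In WT mice it was higher on HFD than on SD, where it had 18 and 26 (2.81, adjusted p = 0.020), so that WT on HFD was the one group with a high level, as for Dgat2. At so few counts the size of the change depends on the pseudocount. An antisense gene that overlaps Mogat2, Gm45012, had at most 24 normalized counts in a library. Also lower in Ad-Yap/Taz-KO on HFD were the acyltransferase genes Gpat4 (-0.60), Agpat1 (-0.71) and Lclat1 (-1.11), and Cnep1r1 (-0.80), whose product belongs to a phosphatase that acts on lipins. The same held for the lipid droplet genes Bscl2, which encodes seipin (-0.97), Fitm2 (-1.10) and Tmem159 (-0.74), and for the glycerol 3-phosphate dehydrogenase genes Gpd1l (-1.01) and Gpd2 (-0.87). After scaling to the adipocyte markers Mogat2 was still lower (-2.66, adjusted p = 0.00563), while the other 9 lay above 0, from 0.48 for Lclat1 to 0.995 for Gpat4, which was then called higher (adjusted p = 0.0154). Averaging both WT HFD libraries left Gpat4, Agpat1, Cnep1r1, Bscl2, Fitm2 and Tmem159 short of the limits (adjusted p between 0.056 and 0.181). With a common total for every library Gpat4, Agpat1, Cnep1r1, Tmem159, Bscl2 and Gpd2 were lost, the first 4 of these with upper-quartile scaling too and the first pair with quantile normalization.

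On HFD, in the deposited scaling, Lpin2 and Agpat4 were higher where Lpin1 and Agpat2 were lower, whereas on SD all 4 lay above WT. Lpin2, which encodes another lipin, had 415 and 410 normalized counts in both WT libraries against 823 and 809 in the knockout on SD (0.98, adjusted p = 0.0038), and 335 and 305 against 1530 and 1360 on HFD (2.17, standard error 0.17, adjusted p = 1.5e-06). Agpat4 had 110 and 124 against 287 and 206 on SD (1.05, adjusted p = 0.046), and 95 and 105 against 264 and 315 on HFD (1.52, adjusted p = 0.0011). Both were above WT in every Ad-Yap/Taz-KO library, the same direction as the macrophage markers, whose part in this was not tested. In WT mice HFD went with higher Mogat2, Cnep1r1 (1.20), Gk (0.94), which encodes glycerol kinase, and Lclat1 (0.86), and with lower Pck2 (-0.89), which encodes the mitochondrial form of PEPCK. These 5 calls were lost once both WT HFD libraries were averaged (adjusted p between 0.112 and 0.166), as were that of Lpin2 between the diets in the knockout (adjusted p = 0.118), that of Agpat4 on SD (adjusted p = 0.0832, and 0.0862 with a common total and 0.0557 with upper-quartile scaling) and the 6 of the interaction that follow (adjusted p from 0.0554 to 0.142). With a common total Cnep1r1, Gk and Lclat1 in WT and Gpat4, Bscl2 and Gpd2 in the interaction were also lost. The calls lost with upper-quartile scaling were Gk in WT and Gpat4 and Gpd2 in the interaction, and with quantile normalization Pck2 in WT and Gpat4, Bscl2 and Gpd2 in the interaction. In Ad-Yap/Taz-KO mice Lpin2 alone of the 22 was called, higher on HFD (0.82, adjusted p = 0.041). In the interaction Gpat4, Lclat1, Mogat2, Bscl2 and Gpd2 were lower and Lpin2 (1.19, adjusted p = 0.0089) was higher, whereas after scaling to the adipocyte markers Gpat4, Lclat1, Bscl2 and Gpd2 lay above 0 there and of the 6 only Lpin2 passed. The 5 calls in WT were lost with that scaling too. With that scaling Lpin2 and Agpat4 were still above WT on SD (1.11 and 1.17) without passing, and on HFD both passed (3.76 and 3.10).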

How the data were processed

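RNA of isolated white adipocytes was measured by RNA-seq in 8 libraries (2 per genotype and diet), grouped by their labels. The authors depleted ribosomal RNA, used Reaper for trimming, STAR 2.5.2b for alignment on GRCm38, and counted on exons with featureCounts 1.5.1, excluding reads over several genes or places. The values the authors deposited are treated as a score: counts per gene over the size factor of the library (DESeq2 1.14.1 per the study's methods), given as whole numbers after rounding. Rounding keeps whole reads from being recovered, so that the count tests planned for that case were not run. Depth was estimated from the spacing of low values (1 read is worth 0.795 to 1.13 normalized counts). Reads carry no molecular identifiers.

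Genes with a mean of at least 5 (18800 of 30387) were tested on log2 of the value plus 1 with limma 3.58.1 (trend) in R 4.3.3, in 1 fit of 4 groups (4 residual and 8.59 prior degrees of freedom). The fit was also run on simulated data with the same spread in every group. The measured spreads differed between groups, so that run does not show how the shared spread behaves here. The members, gene lists and alternatives were chosen with earlier results of these data known. Named were all members, the pathway genes called in any comparison, the targeted genes and the 5 genes whose pattern over the libraries was most like that of the member with the widest range. Coordinates are those of the deposited table, and exon lengths and overlaps come from GENCODE vM21 (30259 identifiers found). Alternatives covered the pseudocount (0.1 or 8), the filter (none or a mean of 50), 4 other scalings, robust moderation, the replicate block, a correction for GC content and length (18750 genes), only the groups compared, the WT HFD libraries averaged, other limits, and each library left out. Tables and figures were made with Python 3.11.15, numpy 2.4.6, pandas 2.3.3 and matplotlib 3.10.9.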

Additional observations from a re-analysis of the deposited data

Results flagged for a closer look

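The effect of genotype differed between the diets for 6 of 10 members by the interaction term (limma, Benjamini-Hochberg adjusted over all tested genes), where 17.4% of all tested genes were called. The log2 fold change of the knockout on HFD minus that on SD was -2.34 for Dgat2, -1.86 for Lpin1, -1.68 for Agpat2, -1.54 for Pck1, -1.53 for Gpam and -1.53 for Mogat1. In each of the 6, both Ad-Yap/Taz-KO libraries were below both WT libraries on HFD (as in 33% of all tested genes). On SD their log2 fold changes ran from -0.22 for Dgat2 to 0.67 for Agpat2. There 0 of 10 members were called, against 4.71% of all tested genes. The values rest on 2 libraries per group, and the 6 calls were lost once both WT HFD libraries were taken as 1 sample. In that fit WT on HFD has no spread of its own. Without repeat 2 of WT on HFD 0 of the 6 passed (4.03% of all genes), without repeat 1 of WT on SD 1 did (2.82%), and without a filter on low values 1 did (2.37%). After scaling to the adipocyte markers the 6 values lay between -0.87 and -0.07, and 0 of them passed.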

How the results depend on the processing

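Of the values of single members under other settings or with a library left out, 982 kept direction and side of the limits, 79 lost a call, 28 gained one and 51 changed sign. The cause of each change below was not tested unless a smaller number of samples shows it. Counts are of genes called by limma, and values are log2 fold changes. The edgeR and DESeq2 tests were not run, since whole reads could not be recovered.

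Scaling to the adipocyte markers called 12087 genes for the knockout on HFD (11933 higher, 154 lower), 333 for the knockout on SD, 1530 for HFD in WT (113 higher, 1417 lower), 1518 for HFD in the knockout and 5501 in the interaction, with 1 member for HFD in WT and 1 in the interaction. Signs then changed in the knockout on HFD for Gpam (0.29), Agpat2 (0.581), Agpat3 (0.825), Lpin1 (0.256), Dgat1 (1.374), Mogat1 (0.279), Pck1 (0.19), Gpd1 (1.24) and Aqp7 (1.084). They also changed for Dgat1 in the knockout on SD (0.024), for Gpam (-0.166), Agpat3 (-0.201) and Aqp7 (-0.046) with HFD in WT, for Agpat3 (0.498), Lpin1 (0.406), Dgat1 (0.451) and Dgat2 (0.122) with HFD in the knockout, and for Agpat3 (0.699), Dgat1 (1.35), Gpd1 (0.67) and Aqp7 (1.155) in the interaction. A common total changed the sign of Dgat1 (0.169) and Gpd1 (0.034) in the knockout on HFD, Agpat3 (-0.04) on SD, Gpam (-0.036) and Agpat3 (-0.07) with HFD in WT, and Dgat1 (0.31) and Aqp7 (0.116) in the interaction. It called 4618 genes higher and 1367 lower in the knockout on HFD, 470 higher and 3568 lower with HFD in WT, and 2611 higher and 619 lower in the interaction. Quantile normalization changed Gpd1 in the knockout on HFD (0.237), Agpat3 on SD (-0.003) and Dgat1 in the interaction (0.125), and called 2186 genes for HFD in WT and 304 for HFD in the knockout. Upper-quartile scaling changed Agpat3 on SD (-0.039) and Dgat1 in the interaction (0.011), and the correction for GC content and length Dgat1 on SD (0.009) and Agpat2 with HFD in the knockout (-0.057). Those 4 settings, robust moderation and a pseudocount of 8 each called 2 members for HFD in the knockout. Of all 18800 genes, a common total called 235 there and upper-quartile scaling 266. The correction for GC content and length called 228 (of 18750 genes) and robust moderation 205. A pseudocount of 8 called 330 genes there and 0.1 called 112.

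With the WT HFD libraries averaged, 3445 genes were called for the knockout on HFD, 539 genes and 1 member for HFD in WT, 28 genes for HFD in the knockout, and 517 genes and 0 members in the interaction. Without a filter on low values there were 438 genes for the knockout on SD, and 1701 genes and 1 member for HFD in WT. That setting gave 3 genes and 0 members for HFD in the knockout (3569 genes and 3 members at an unadjusted p under 0.05). It gave 721 genes and 1 member in the interaction. Fitting only the groups compared called 461 genes for the knockout on SD, and 0 genes and 0 members for HFD in the knockout (2059 genes and 3 members at an unadjusted p under 0.05). An adjusted p of 0.01 with a log2 fold change of 1 left 3032, 403, 937 and 25 genes for the knockout on HFD and SD and for HFD in WT and the knockout, and 732 genes and 2 members in the interaction.

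Leaving out 1 library, with the lone library of its group assumed to vary like the other groups, gave 4 to 10 members and 3629 to 6383 genes for the knockout on HFD, 0 to 1 and 381 to 1023 for the knockout on SD, 1 to 4 and 628 to 3866 for HFD in WT, 0 to 7 and 14 to 961 for HFD in the knockout, and 0 to 8 and 530 to 4249 in the interaction. Values that changed sign ran from -0.684 to 0.251 for Dgat1 and -0.826 to 0.123 for Gpd1 in the knockout on HFD. On SD they ran from -0.226 to 0.694 for Gpam, -0.12 to 0.126 for Agpat3, -0.545 to 0.102 for Dgat2, -0.268 to 0.071 for Dgat1 and -0.071 to 0.352 for Pck1. With HFD they ran from -0.083 to 0.838 for Gpam in WT, and from -0.394 to 0.498 for Agpat2 and -0.106 to 0.843 for Gpd1 in the knockout, and in the interaction from -0.586 to 0.349 for Dgat1.

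Deviations of same-numbered libraries correlated between -0.107 and 0.04, so that the numbers do not pair the libraries. The replicate block called 7, 0, 4, 1 and 6 members, as without it, and moved the genes called for HFD in the knockout from 202 to 112.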

Other observations

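Dgat2, the member with the widest range of group means, shared its pattern over the 8 libraries most closely with Ephb6 (Pearson r = 0.998), Nudt18 (0.998), Extl3 (0.997), Ehd2 (0.996) and Zfp518b (0.995), among the 12093 genes whose mean reached 50. Ephb6, an Eph receptor gene, had 123 and 173 normalized counts in both WT libraries against 111 and 146 in the knockout on SD, and 328 and 333 against 121 and 56 on HFD. Ehd2, which encodes a protein of caveolae, had 27868 and 29025 in the WT libraries on HFD against 13608 and 8262 in the knockout. These r values are a description over 8 libraries that share their scaling and group structure. Among the members themselves, Dgat2 was closest to Agpat3 (r = 0.937) and Pck1 (0.917), and Agpat2 to Gpd1 (0.929).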
